A study of Mus musculus with 6 samples.

Results

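The solute carriers (SLC) are the membrane proteins that carry sugars, amino acids, ions, metals, vitamins and metabolites across the plasma membrane and the membranes of organelles. Their genes are numbered by family and then by member, so that Slc39a10 is member 10 of family 39. Members were taken by symbol: every gene of the count table named Slc, a number and a member suffix, except Slc2a1, Slc3a2, Slc7a5, Slc7a11, Slc11a2, Slc16a3 and Slc40a1, known for glucose, amino acid, lactate and iron transport, which are not described here. This gave 175 of the 10520 genes in the table, in 43 families that were grouped here into 14 substrate classes. The table held 180 symbols of this form, and 5 of them were left out. Of the 175 symbols, 5 do not name a transporter (Slc2a4rg-ps, Slc4a1ap, Slc7a6os, Slc9a3r1 and Slc9a3r2), and none of these was called.

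Solute carriers use ion gradients, the exchange of one substrate for another or simple downhill movement, in contrast to the ABC transporters and P-type ATPases, which split ATP. Family 25 sits mostly in the inner mitochondrial membrane, family 35 brings nucleotide sugars into the Golgi and endoplasmic reticulum, and families 39 and 30 move zinc into and out of the cytosol. In carcinoma cells solute carriers are best known for supplying glucose, glutamine and other nutrients and for clearing acid.

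The cells were E0771, a mouse mammary adenocarcinoma line from the C57BL/6 strain. Both groups had been transduced with lentivirus and selected as puromycin-resistant pools: shControl with the empty pLKO.5-puro vector, which holds no hairpin, and shLmna with a hairpin against the transcript of lamin A and lamin C, the intermediate filament proteins under the nuclear membrane. The knockdown libraries are titled shRNA4. RNA was read by MARS-seq, which captures 3' ends and counts each molecule once by a unique molecular identifier (UMI), in 3 libraries a group. The comparison asks which solute carrier transcripts differ once lamin A/C is lowered.

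The libraries held from 1846208 to 3242051 UMIs. Lmna fell from 2278 ± 164 to 994 ± 16.5 normalized UMIs (SD, n = 3 libraries a group), a log2 change of -1.20 (SE 0.132, edgeR adjusted p = 3.55e-05), with no overlap between groups. The keratin Krt8 was at 721 and 758 normalized UMIs in shControl and shLmna, and Krt18, Epcam and Erbb2 were also detected, while the epithelial markers Krt19, Cdh1 and Esr1 had no entry in the count table. Of the markers of other cells, Lyz2 was called higher in shLmna (log2 change 1.28, adjusted p = 0.0110), Cd68 did not pass (adjusted p = 0.234), Pdgfra did not pass (adjusted p = 0.958), Csf1r held 0 to 7 UMIs and Pecam1 held 2 to 7 in each library, and Ptprc, Cdh5, Dcn and Lum had no entry. Whether Lyz2-expressing cells have a part in any solute carrier result was not tested. The titles name a plate and number the shControl libraries 13 to 15 and the shLmna libraries 16 to 18. What these numbers stand for is not said. An effect tied to them cannot be told apart from that of the hairpin. The labels do not say whether replicates were separate cultures, and p-values measure only the spread between these libraries. In bulk RNA, fewer cells of a kind and less RNA per cell cannot be told apart.

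A pair of libraries, shControl replicate 3 and shLmna replicate 2, stood apart by pigment-cell transcripts. The 6 markers measured of 9 searched (Dct, Mlana, Pmel, Tyrp1, Sox10 and Mitf) summed to 15, 7 and 1421 UMIs in shControl replicates 1 to 3 and to 2, 1647 and 5 UMIs in shLmna replicates 1 to 3. These sums are 0.0749% of the shControl library and 0.0629% of the shLmna library that stood apart. The study also worked with B16F10 mouse melanoma cells. The markers were chosen after the counts had been seen.

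Both solute carriers of the melanosome followed the same libraries. Slc45a2, a melanosomal carrier that sets its pH, had 0, 0 and 23 UMIs in shControl and 0, 32 and 0 in shLmna. Slc24a5, a potassium-dependent sodium/calcium exchanger of melanosomes, had 2, 5 and 41 UMIs in shControl and 2, 52 and 8 in shLmna. For both genes the library that stood apart in each group was its highest, and the groups overlapped. Slc24a5 had a log2 change of 0.26 with the largest SE of any tested member, 0.915. Results below come from all 6 libraries, and values without this pair are given for the called members and for the members described below that gained or lost a call or an adjusted p below 0.05.

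**Figure D1:**
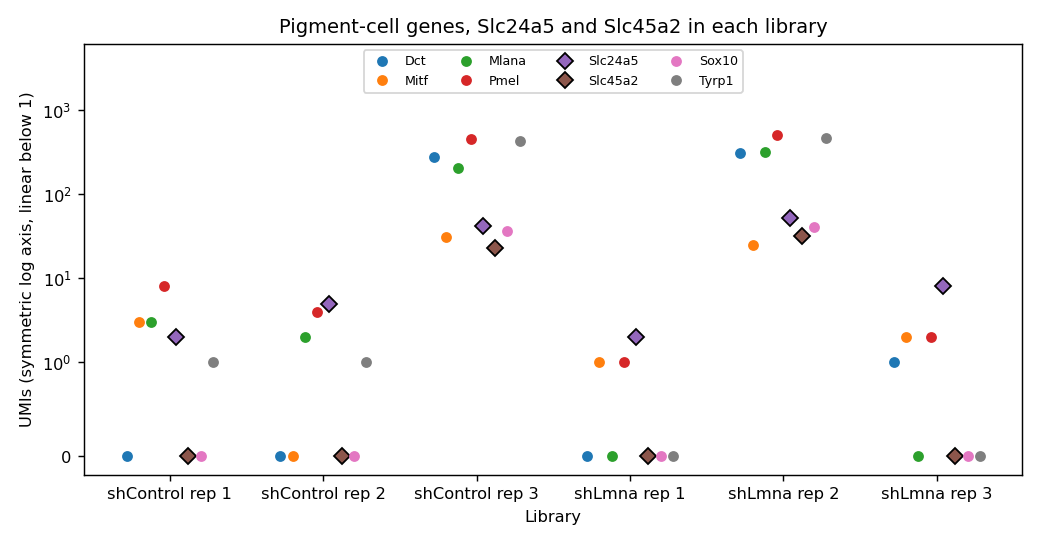
UMIs of 6 pigment-cell markers (circles) and the melanosomal carriers Slc24a5 and Slc45a2 (diamonds) in each of the 6 libraries, on a symmetric log axis that is linear below 1. Slc45a2 had 23 UMIs in shControl replicate 3 and 32 in shLmna replicate 2 and 0 elsewhere.

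Few solute carriers differed between the groups. A gene was called when its mean normalized count was above 5, its absolute log2 fold change (shLmna over shControl) above 1 and its adjusted p below 0.05, with Benjamini-Hochberg adjustment over all 8969 genes tested. Enough UMIs for the test were found in 142 members. Of these, 2 were called higher in shLmna (Slc39a10 and Slc25a21) and 4 lower (Slc9a2, Slc6a4, Slc16a6 and Slc4a11), which is 4.23% of the tested members beside 5.71% of all genes tested. By direction, 1.41% of members were called higher beside 3.97% of all genes, and 2.82% lower beside 1.74%. Without the pair of libraries that stood apart, 4 members were called higher and 4 lower, 5.63% beside 6.16% of all genes, and Slc4a11 was no longer among them (adjusted p = 0.0671). The log2 changes of the other 5 called members were then -2.21 for Slc9a2, -1.61 for Slc16a6, -1.48 for Slc6a4, 1.54 for Slc25a21 and 2.01 for Slc39a10, with adjusted p from 0.000402 to 0.0412. Without shControl replicate 3 alone 7 were called higher and 7 lower, and without shLmna replicate 3 alone 1 and 3. The fit without shControl replicate 3 kept shLmna replicate 2 and its pigment-cell transcripts. Its gained calls included the melanosomal Slc24a5 and also Slc30a4, both highest in shLmna replicate 2.

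With no minimum fold, 18 members had an adjusted p below 0.05, 8 higher and 10 lower, or 12.7% of members beside 13.7% of all genes. By direction, 5.63% of members were higher and 7.04% lower, beside 7.96% and 5.78% of all genes. The 3 libraries of one group lay wholly above the 3 of the other for 41 members, 18 higher and 23 lower in shLmna, or 28.9% beside 32.5% of all genes. The median log2 change of the tested members was -0.01, with quartiles of -0.35 and 0.30, and that of all genes was 0.00 with quartiles of -0.26 and 0.30. Of the tested members 70 lay above 0 and 72 below. No more than 7 members had an absolute log2 change above 1 at any p. The number with an adjusted p below 0.05 was 32 without shControl replicate 3, in the fit that kept shLmna replicate 2. It was 8, 8, 9 and 6 without shControl replicate 1, shControl replicate 2, shLmna replicate 2 and shLmna replicate 3. None of these shares was tested against that of all genes.

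**Figure D2:**
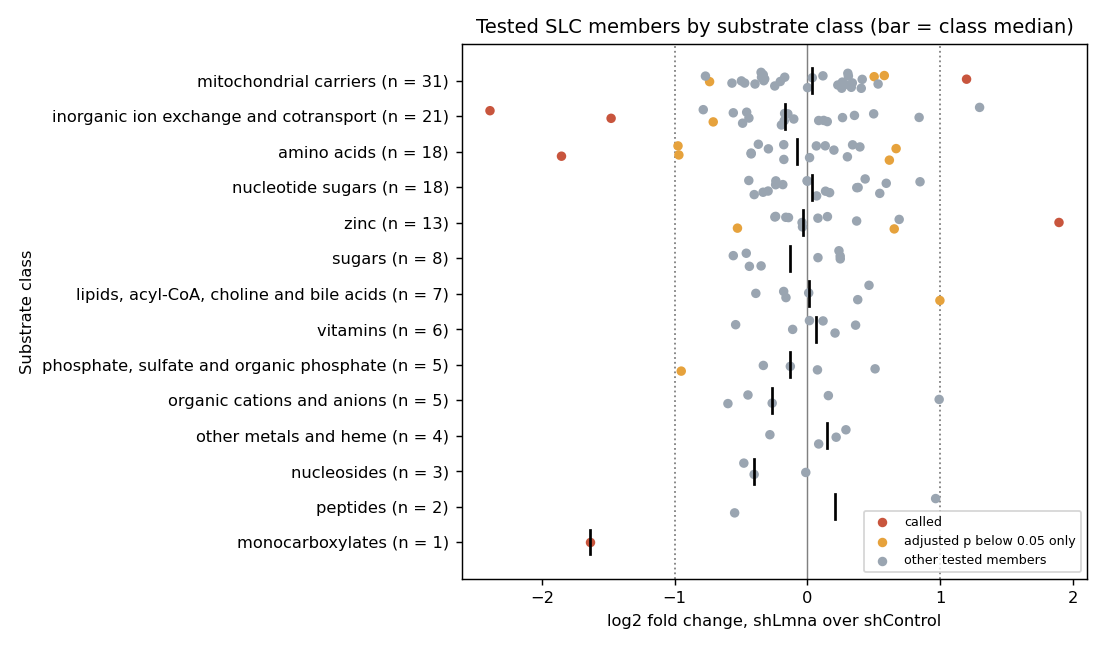
Log2 fold change (x axis, shLmna over shControl) of the 142 tested members by substrate class (y axis, n tested in brackets), with called members in red, members with adjusted p below 0.05 that were not called in orange and class medians as black bars. Dotted lines mark an absolute change of 1, which 7 members exceeded.

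Among carriers that exchange inorganic ions, 2 of 21 tested members were called, both lower, beside 1.74% of all genes called lower and 5.71% called in either direction. Slc9a2, a plasma membrane sodium/proton exchanger that removes acid from epithelial cells, had 23, 43 and 24 UMIs in shControl and 7, 5 and 4 in shLmna. All 3 knockdown libraries were below all control libraries. Its normalized level fell from 30.6 ± 6.20 to 5.73 ± 1.04, a log2 change of -2.39 (SE 0.365, adjusted p = 0.000585), the largest of any member. The gene lies on chromosome 1 at 40680574 to 40769273 (mm10), plus strand, and its adjusted p stayed below 0.05 in all 14 alternative settings.

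Slc4a11, a proton-permeable carrier of the bicarbonate transporter family that is known from corneal endothelium, had 19, 14 and 11 UMIs in shControl and 6, 6 and 3 in shLmna. The groups did not overlap, but every knockdown library held few UMIs. Its log2 change was -1.48 (SE 0.419, adjusted p = 0.0295). This call was lost with DESeq2 (adjusted p = 0.145) and in 5 of the 6 fits that left out 1 library, those without shControl replicate 1 or 2 or without any one of the shLmna libraries, at adjusted p of 0.0636 to 0.145.

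Slc12a4, the potassium/chloride cotransporter KCC1, fell by less than the fold criterion (log2 change -0.71, adjusted p = 0.0214), with 171, 180 and 106 UMIs in shControl and 119, 97 and 54 in shLmna. After scaling, all knockdown libraries were below all control libraries. Its counted end overlaps Gm16156 on the other strand. Slc12a4 passed in 11 of 15 alternative settings, but in only 2 of the 6 fits that left out 1 library (adjusted p up to 0.112). The anion exchanger Slc4a2 (log2 change -0.17) did not pass, nor did Slc9a3r1, a scaffold protein that binds sodium/proton exchangers (log2 change -0.10).

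The only tested member of family 16, Slc16a6, was lower in shLmna. It belongs to the monocarboxylate carriers and is known for the export of ketone bodies from liver cells. It had 87, 90 and 27 UMIs in shControl and 26, 14 and 20 in shLmna. After scaling the groups did not overlap, though shControl replicate 3 was well below the other control libraries. Its level fell from 66.6 ± 26.5 to 22.2 ± 7.70 normalized UMIs, a log2 change of -1.64 (SE 0.333, adjusted p = 0.00488), and the log2 change was -1.61 without the pair of libraries that stood apart. Its counted 3' end (gene on chromosome 11, 109450855 to 109473598, minus strand) overlaps Amz2 on the other strand, whose own log2 change was 0.51 (adjusted p = 0.168). Slc16a6 kept an adjusted p below 0.05 in all 14 alternative settings.

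**Figure D3:**
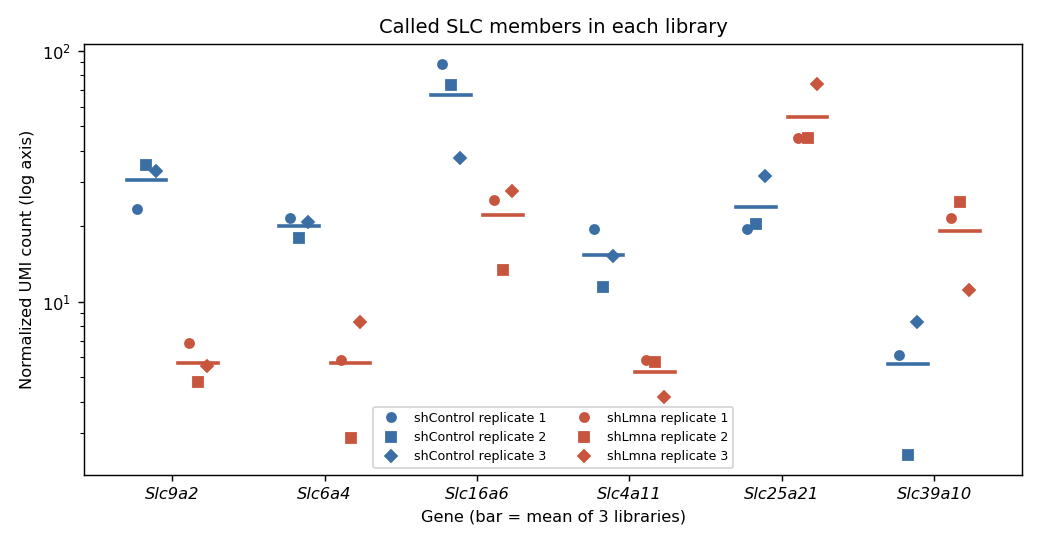
Normalized UMI counts (log axis) of the 6 called members in each library, shControl in blue and shLmna in red, with circle, square and diamond for replicates 1, 2 and 3 and a bar for the mean of 3. For each of the 6 genes the groups do not overlap, which held for 32.5% of all genes tested.

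Carriers of amino acids and related amines, families 1, 6, 7, 36 and 38 among those tested, went in both directions: of 18 tested, 2 were higher and 3 lower at adjusted p below 0.05, beside 7.96% and 5.78% of all genes. Slc6a4, the sodium-dependent serotonin transporter, was the called one, with 21, 22 and 15 UMIs in shControl and 6, 3 and 6 in shLmna. No knockdown library reached the lowest control library. Its level fell from 20.1 ± 1.87 to 5.69 ± 2.73 normalized UMIs, a log2 change of -1.85 (SE 0.411, adjusted p = 0.00841). Without shLmna replicate 2 the adjusted p was 0.0510. The gene lies on chromosome 11 at 76998603 to 77032340, plus strand.

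Slc38a3, a sodium- and proton-coupled glutamine carrier, had 66, 79 and 37 UMIs in shControl and 41, 30 and 17 in shLmna, and Slc7a7, the light chain of a cationic and neutral amino acid exchanger, had 58, 51 and 27 against 28, 22 and 16. For both, every scaled knockdown value was below every control value. Slc38a3 fell by 0.97 on the log2 scale (SE 0.246, adjusted p = 0.0166). It passed in 10 of 14 alternative settings and in 2 of the 6 fits that left out 1 library (adjusted p up to 0.0884). It crossed the fold criterion and was called without the pair of libraries that stood apart (adjusted p = 0.0232). Slc7a7 also had a log2 change of -0.97 (SE 0.269, adjusted p = 0.0264). It passed in 9 of 14 alternative settings, and not with DESeq2 (adjusted p = 0.0830) or in 4 of the 6 fits that left out 1 library (up to 0.127). Its counted end overlaps Oxa1l on the other strand, which had a log2 change of -0.71 (adjusted p = 0.0583), and reads of the pair cannot be told apart if strand was not used.

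In the same family as Slc38a3, a pair of carriers rose, named here after their values were seen. Slc38a10 had 181, 255 and 126 UMIs in shControl and 280, 334 and 225 in shLmna (log2 change 0.67, SE 0.150, adjusted p = 0.00898). Slc38a1, a glutamine and alanine importer, had 118, 163 and 94 against 181, 194 and 165 (log2 change 0.62, SE 0.164, adjusted p = 0.0211). Neither gene's groups overlapped after scaling. With an offset for the base composition (GC content) of the counted end, Slc38a1, which passed in 10 of 15 alternative settings, had a log2 change of 0.35 and did not pass (adjusted p = 0.148), whereas Slc38a10 stayed at 0.70 (adjusted p = 0.00465). The most abundant amino acid carriers were Slc38a2, a stress-regulated importer of small neutral amino acids, at 1081 and 838 normalized UMIs, and the taurine transporter Slc6a6 at 763 and 1004. Slc38a2 (log2 change -0.37, adjusted p = 0.128), Slc6a6 (log2 change 0.40, adjusted p = 0.0703) and the cationic amino acid carrier Slc7a1 (log2 change -0.18, adjusted p = 0.468) did not pass.

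Of 13 tested zinc carriers 1 was called higher, and of 31 tested mitochondrial carriers also 1, beside 3.97% of all genes. No other class held a member called higher. ZIP carriers (family 39) bring zinc into the cytosol and ZnT carriers (family 30) take it out, and in zinc-replete cells the factor MTF1 binds metal response elements in promoters such as those of the metallothioneins and Slc30a1. The promoters of 4 zinc carriers are printed below, those of the members of family 39 with an adjusted p below 0.05 and of Slc30a1 for comparison, since this element is the one known to link zinc to such genes. They are RefSeq sequences of GRCm38.p6 from 250 bases before to 50 after the start: Slc30a1 at chr1:191906531-191906830 (plus strand), Slc39a13 at chr2:91070266-91070565 (minus), Slc39a10 at chr1:46853569-46853868 (minus) and Slc39a7 at chr17:34031641-34031940 (minus). Capitals mark the core of the metal response element, searched on both strands as TGCACNC and as TGCGCNC, which do not overlap here.
Slc30a1: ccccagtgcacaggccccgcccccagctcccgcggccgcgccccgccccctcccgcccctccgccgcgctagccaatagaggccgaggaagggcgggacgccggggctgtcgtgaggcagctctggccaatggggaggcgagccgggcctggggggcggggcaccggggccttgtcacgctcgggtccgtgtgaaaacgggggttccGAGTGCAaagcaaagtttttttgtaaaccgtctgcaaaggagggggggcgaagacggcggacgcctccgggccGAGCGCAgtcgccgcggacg
Slc39a13: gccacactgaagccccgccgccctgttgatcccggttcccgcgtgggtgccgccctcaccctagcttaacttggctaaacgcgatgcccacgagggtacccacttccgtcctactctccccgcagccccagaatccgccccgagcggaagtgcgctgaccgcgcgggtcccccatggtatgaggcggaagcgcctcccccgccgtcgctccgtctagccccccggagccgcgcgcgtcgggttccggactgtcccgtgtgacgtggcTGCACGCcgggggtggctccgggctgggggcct
Slc39a10: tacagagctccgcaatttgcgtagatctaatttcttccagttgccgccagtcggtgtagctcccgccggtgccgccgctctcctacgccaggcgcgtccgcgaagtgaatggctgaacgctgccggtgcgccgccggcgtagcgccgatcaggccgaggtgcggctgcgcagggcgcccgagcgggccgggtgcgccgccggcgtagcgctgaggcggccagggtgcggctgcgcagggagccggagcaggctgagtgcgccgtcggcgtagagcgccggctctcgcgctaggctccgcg
Slc39a7: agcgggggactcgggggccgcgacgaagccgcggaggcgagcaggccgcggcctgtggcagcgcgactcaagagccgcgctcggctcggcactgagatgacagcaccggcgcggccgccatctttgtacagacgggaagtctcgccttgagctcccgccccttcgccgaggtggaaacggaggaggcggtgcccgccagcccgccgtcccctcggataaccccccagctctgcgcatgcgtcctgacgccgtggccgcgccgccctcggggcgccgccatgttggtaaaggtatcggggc

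The core was found in the promoters of Slc30a1, in both forms, and of Slc39a13, and these letters were not in the printed windows of Slc39a10 and Slc39a7 or in the other listed promoter of Slc39a10. Either form was present in 25.7% of 32851 mouse promoters of the same length, in 33.5% of the 185 promoters listed for 133 of the 175 members and in 7 of 15 promoters of the zinc families. A match of letters does not show a bound site.

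Slc39a10, the plasma membrane zinc importer ZIP10, had 6, 3 and 6 UMIs in shControl and 22, 26 and 8 in shLmna. All knockdown libraries were above all control libraries, with shLmna replicate 3 nearest to them. Its level was 5.63 ± 2.96 and 19.2 ± 7.19 normalized UMIs, a log2 change of 1.90 (SE 0.468, adjusted p = 0.0146). Its counted end overlaps Dnah7c on the other strand (gene on chromosome 1, 46807544 to 46892852, minus strand). The call was lost without shControl replicate 2, shLmna replicate 1 or shLmna replicate 2, with adjusted p of 0.125, 0.0733 and 0.0702, and with the GC offset and replicate block together (adjusted p = 0.0501).

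The most abundant ZIP carriers moved in opposite directions. Slc39a13, the zinc carrier ZIP13 of the early secretory pathway, had 438, 668 and 304 UMIs in shControl and 798, 697 and 565 in shLmna. It rose by 0.65 on the log2 scale (SE 0.147, adjusted p = 0.00898), from 471 ± 65.2 to 744 ± 66.1 normalized UMIs, and kept an adjusted p below 0.05 in all 15 alternative settings. Slc39a7, the ZIP7 carrier that releases zinc from the endoplasmic reticulum, had 718, 895 and 448 UMIs in shControl and 501, 550 and 310 in shLmna. It fell by 0.53 on the log2 scale (SE 0.142, adjusted p = 0.0230), from 695 ± 64.9 to 482 ± 48.8, and its counted end overlaps Gm20427 on the same strand. It passed in 11 of 15 alternative settings and in 2 of the 6 fits that left out 1 library (adjusted p up to 0.103). The scaled groups overlapped for neither gene.

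The other 10 of the 13 tested zinc carriers did not pass, among them all 4 of family 30, with Slc30a9 the most abundant (log2 change 0.15) and Slc30a1 at -0.24 (adjusted p = 0.591). The median over the 13 was -0.04. Of the zinc-binding metallothioneins and their factor, Mt3 was called higher (22, 29 and 17 UMIs against 59, 74 and 38, log2 change 1.38, adjusted p = 0.00149). Mt1 and Mt2, the abundant forms, had log2 changes of -0.38 and -0.42 with adjusted p of 0.108 and 0.0597, and Mtf1 did not pass. Reads of these similar genes may be split between copies.

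**Figure D4:**
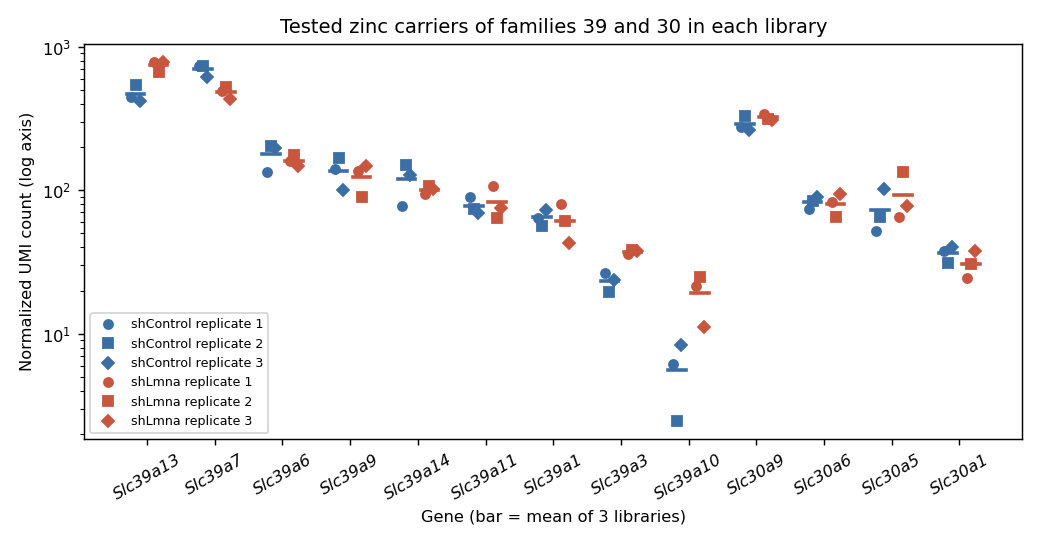
Normalized UMI counts (log axis) of the 13 tested zinc carriers in each library, 9 of family 39 on the left and 4 of family 30 on the right, with blue for shControl, red for shLmna and a bar for the mean of 3. Slc39a13, Slc39a10 and Slc39a3 lie higher in all shLmna libraries and Slc39a7 lower, and groups did not overlap for 32.5% of all genes tested. Slc39a3 did not pass the test (adjusted p = 0.0897).

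A zinc exporter below the test's minimum, Slc30a4, differed between the knockdown libraries and is named after its values were seen. It had 0, 2 and 2 UMIs in shControl and 3, 113 and 55 in shLmna. The libraries shLmna 2 and 3 were high and shLmna 1 was at the control level. Against a floor of 3 UMIs in each shControl library, the observed shLmna mean was 19.4-fold, a value carried by those 2 libraries. In the libraries with pigment-cell transcripts, Slc30a4 had 2 UMIs (shControl replicate 3) and 113 UMIs (shLmna replicate 2). Whether its counts are tied to those transcripts was not tested. Slc30a4 was called with DESeq2 and with no filter on low counts, among other settings.

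Mitochondrial carriers of family 25 were the largest and most abundant family, with 35 members and 31 tested. They held 36.0 to 42.7% of all solute carrier UMIs in shControl and 40.7 to 46.6% in shLmna, ranges that overlap. At an adjusted p below 0.05, 3 of the 31 were higher (Slc25a21, Slc25a4 and Slc25a24) and 1 was lower (Slc25a26). The shares of all genes were 7.96% higher and 5.78% lower. The family median was 0.04.

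Slc25a21, the carrier of 2-oxoadipate and related oxodicarboxylates from lysine breakdown, had 19, 25 and 23 UMIs in shControl and 46, 47 and 53 in shLmna. The counts did not overlap. Its level rose from 23.9 ± 6.90 to 54.5 ± 16.5 normalized UMIs, a log2 change of 1.20 (SE 0.289, adjusted p = 0.0130). The counted end has a GC content of 31.6%, beside a median of 47.3% over all genes tested, and with an offset for GC content its log2 change was 0.51 (adjusted p = 0.202). The call was also lost without shControl replicate 1, shControl replicate 2 or shLmna replicate 3, at adjusted p of 0.0517, 0.0929 and 0.0740. The end (gene on chromosome 12, 56712634 to 57197472, minus strand) overlaps Pax9 on the other strand, which had a log2 change of -0.29 (adjusted p = 0.536).

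Slc25a4, the ADP/ATP carrier ANT1, had 1137, 1536 and 1151 UMIs in shControl and 1721, 2197 and 1586 in shLmna. It rose by 0.58 on the log2 scale (SE 0.158, adjusted p = 0.0239), with no overlap after scaling, and by 0.59 with the GC offset. It passed in 11 of 15 alternative settings and in 2 of the 6 fits that left out 1 library (adjusted p up to 0.128). Its close relative Slc25a5 (ANT2), whose reads may be shared in part, had a log2 change of 0.26 that did not pass (adjusted p = 0.287). Slc25a24, an ATP-magnesium/phosphate carrier named here after its values were seen, had a log2 change of 0.50 (adjusted p = 0.0462). This became -0.05 with the GC offset (adjusted p = 0.839), and its counted end has a GC content of 33.6%. It passed in 6 of 15 alternative settings.

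Slc25a26, which brings S-adenosylmethionine into mitochondria, had 53, 74 and 40 UMIs in shControl and 36, 35 and 24 in shLmna, and fell by 0.74 on the log2 scale (SE 0.215, adjusted p = 0.0338). It passed in 6 of 14 alternative settings, and not with DESeq2 (adjusted p = 0.137), without the pair of libraries that stood apart (0.0819), with the GC offset and replicate block together (0.0520) or in 5 of the 6 fits that left out 1 library (up to 0.137). All scaled knockdown values lay below all control values. Its counted end overlaps Lrig1 on the other strand, which had a log2 change of -0.03. The most abundant members of all were the phosphate carrier Slc25a3, at 2589 ± 744 and 3147 ± 961 normalized UMIs, and Slc25a39, a carrier of glutathione, at 2632 ± 187 and 2855 ± 187. Neither passed (adjusted p = 0.427 and 0.608), and Slc25a3 ranged from 1885 to 4425 UMIs over the libraries.

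Slc20a1, the sodium-dependent phosphate importer PiT1, had 169, 214 and 202 UMIs in shControl and 94, 133 and 73 in shLmna. Every knockdown library was below every control library. It fell by 0.95 on the log2 scale (SE 0.211, adjusted p = 0.00851). It passed the fold criterion without shControl replicate 1 or 2 or without shLmna replicate 2. Over the 6 fits that left out 1 library its log2 change ranged from -1.10 to -0.71. Its adjusted p was below 0.05 in 5 of these fits (up to 0.0587) and in 14 of all 15 alternative settings.

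Slc33a1, which brings acetyl-CoA into the endoplasmic reticulum, had 17, 27 and 26 UMIs in shControl and 36, 64 and 36 in shLmna. The raw counts did not overlap, but the scaled ones did. Its log2 change of 1.00 (SE 0.305, adjusted p = 0.0413) lay just under the fold criterion before rounding, so it was not called. It passed in 7 of 14 alternative settings. It was called with upper-quartile scaling, the replicate number as a block and without the pair of libraries that stood apart, among others, whereas DESeq2 gave an adjusted p of 0.0892 and the GC offset gave a log2 change of 0.26 (adjusted p = 0.517) at a GC content of 30.6%.

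Some classes had no member at an adjusted p below 0.05, beside 13.7% of all genes. They were nucleotide sugars, sugars, vitamins, nucleosides, peptides, organic cations and anions, and other metals and heme. Each held from 2 (peptides) to 18 (nucleotide sugars) tested members. All 18 tested carriers of family 35 were among them, with log2 changes from -0.44 to 0.85 and Slc35a4 as the most abundant (631 and 535 normalized UMIs). In this family Slc35f5, named after its values were seen, had 8, 16 and 29 UMIs in shControl and 33, 42 and 21 in shLmna, and was called higher without the pair of libraries that stood apart (adjusted p = 0.0136). The lysosomal heme carrier Slc48a1 was at 1199 ± 67.6 and 1271 ± 43.6 (log2 change 0.09, adjusted p = 0.713), and the neuronal-type glucose carrier Slc2a3 was at 173 and 126 (log2 change -0.46, adjusted p = 0.0855). Slc22a23, the most abundant measured member of the organic ion carriers of family 22, had a log2 change of -0.27 (adjusted p = 0.582). Large changes that did not pass were those of Slc22a18, an imprinted organic cation carrier (log2 change 0.99, adjusted p = 0.139), and of Slc15a3, a lysosomal peptide and histidine carrier (0.97, adjusted p = 0.0631). Slc15a3 was called with the GC offset (adjusted p = 0.0403).

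**Figure D5:**
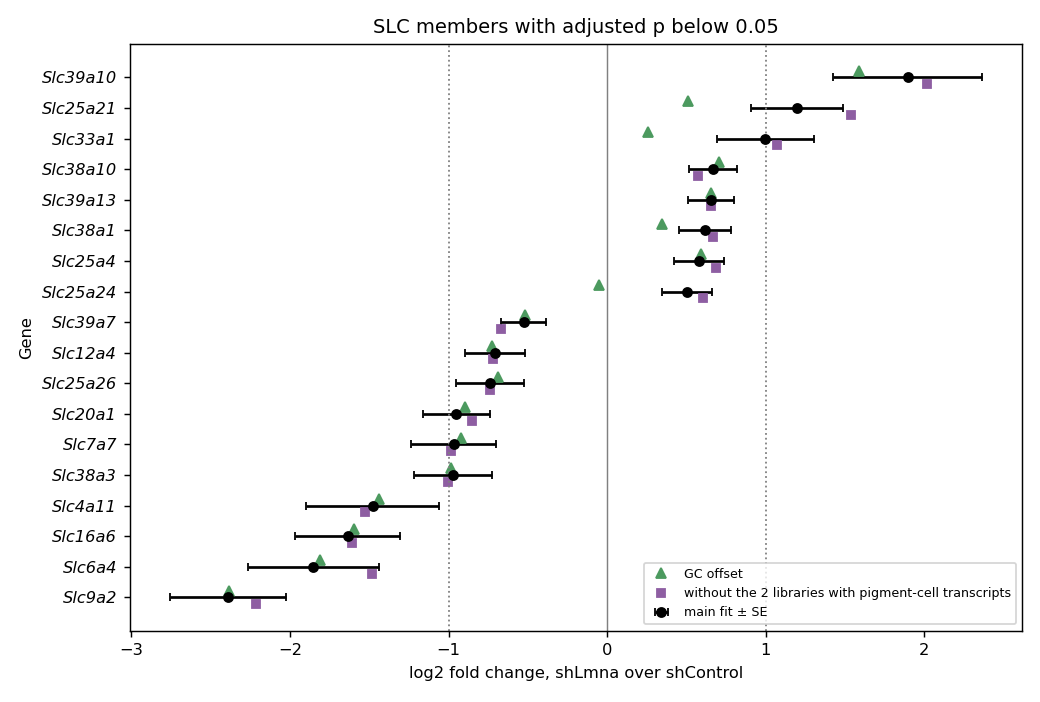
Log2 fold change (x axis, shLmna over shControl) of the 18 members with adjusted p below 0.05, as black points with bars of 1 SE, with the GC offset as green triangles and without shControl replicate 3 and shLmna replicate 2 as purple squares. Slc25a24 moved from 0.50 to -0.05 with the GC offset and Slc25a21 from 1.20 to 0.51.

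Transporters outside the Slc names gave the following. Of 16 P-type ATPases tested, Atp13a3, linked to polyamine transport, was called higher (log2 change 1.62, adjusted p = 2.3e-05) and its relative Atp13a4 lower (log2 change -1.22, adjusted p = 0.0248). The counts of Atp13a3 were 64, 96 and 61 against 228, 249 and 173, well apart.

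Of 14 carriers and partner proteins without an Slc symbol, Mfsd2a, which takes up lysophosphatidylcholine carrying omega-3 fatty acids, was called lower, with 192, 173 and 83 UMIs against 62, 53 and 53 (log2 change -1.31, SE 0.225, adjusted p = 0.00149). Embigin (Emb), a chaperone of monocarboxylate carriers that is named after its values were seen, rose by 0.78 on the log2 scale (adjusted p = 0.00447), and the related chaperone basigin (Bsg) did not pass (adjusted p = 0.612). The 1 aquaporin tested and the 1 tested organic anion transporting polypeptide did not pass.

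Solute carrier UMIs made up 0.983 to 1.02% of the shControl libraries and 1.04 to 1.14% of the shLmna libraries. The ranges do not overlap, and an exact permutation test of 3 libraries against 3 could not give a two-sided p below 0.1. The classes did not share this direction. Summed normalized UMIs of mitochondrial carriers were 10405 ± 937 in shControl and 12125 ± 1055 in shLmna, with overlap between libraries. The mean sums of the zinc, other metals and heme, and lipid classes were also higher in shLmna. Those of all other classes were lower.

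The 33 members not tested had at most 113 UMIs in any library and from 8 to 175 in all 6 together. Slc25a40, a mitochondrial carrier linked to glutathione that is named after its values were seen, had 1, 0 and 0 UMIs in shControl and 7, 7 and 6 in shLmna. Its observed shLmna mean was 2.26-fold the floor of 3 UMIs in each shControl library. Slc4a7, Slc11a1 and Slc9b2, also named after their values were seen, were set against the same floor. The bicarbonate cotransporter Slc4a7 (0, 0 and 1 UMIs against 3, 6 and 5) had a shLmna mean 1.62-fold the floor. The metal carrier Slc11a1 (8, 10 and 3 against 2, 3 and 0) was lower in shLmna, with a shControl mean 2.06-fold the floor. The sodium/proton exchanger Slc9b2 (6, 5 and 5 against 2, 1 and 0) was also lower, with a shControl mean 1.72-fold the floor. These ratios are not lower bounds, since the higher mean has counting error of its own. Slc4a7 in shLmna replicate 1 and Slc11a1 in shControl replicate 3 were themselves at 3 UMIs. All of these genes were below the minimum for the test. The SE of the log2 change ranged from 0.129 to 0.915 over tested members, with a median of 0.220.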

How the data were processed

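Bulk MARS-seq libraries of E0771 cells, 3 shControl and 3 shLmna, were grouped by their sample labels. The authors trimmed reads with cutadapt, mapped them to mm10 with STAR 2.4.2a and used HTSeq to count UMIs in a window from 1000 bases before the 3' end of a RefSeq gene to 100 after it. The deposited counts are whole numbers without normalization. Whether strand was used was not given in the sources used here. Deposited log2 values (normalized, then ComBat-corrected) and a DESeq2 comparison of fold changes and p-values were not used here. Totals were 1846208 to 3242051 UMIs per library. Floors (3 UMIs) cover counting error of the lower group only, and the mean of the other group was taken as observed.

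Counts were tested in R 4.3.3 with edgeR 4.0.16 (filterByExpr with a minimum count of 10, TMM scaling, quasi-likelihood test, Benjamini-Hochberg adjustment), and the fit was tested on simulated data. Normalized counts are scaled to the median library and, being 3' end counts, do not scale with transcript length. Alternatives were DESeq2 1.42.0, other scalings and filters, the replicate number as a block, a loess offset (span 0.3, degree 2) for GC content of the counted end, and libraries left out. Coordinates came from GENCODE M21 (GRCm38), which matched all 180 Slc symbols, and promoters from RefSeq. Tables were made in Python 3.11.15 with pandas 2.3.3 and numpy 2.4.6, and plots with matplotlib 3.10.9.

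Members and lists were chosen with earlier results of these data known. Named by rule were called members, the 10 most abundant, the 6 uncalled with adjusted p below 0.05 and the largest change, the 3 with the largest change that did not pass, the most abundant of each family of 5 or more, and called genes of the other transporter lists. Slc4a7, Slc9b2, Slc11a1, Slc24a5, Slc25a24, Slc25a40, Slc30a1, Slc30a4, Slc35f5, Slc38a1, Slc38a10, Slc45a2, the other zinc carriers plotted, pigment markers, Emb, Bsg, Mt1, Mt2, Mtf1 and the overlapping genes were chosen after their values were seen. Some results are not reported here.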

Additional observations from a re-analysis of the deposited data

How the results depend on the processing

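The calls rest on few UMIs, and 3 libraries a group allow no single-gene permutation p below 0.1. Against 2 members called higher, 4 lower and 18 with adjusted p below 0.05, requiring a mean count of at least 50 left 81 members tested with 0, 0 and 7, since none of the 6 called members reached it. Leaving out 1 library gave 1 to 7 higher, 3 to 7 lower and 6 to 32 with adjusted p below 0.05. The highest of each came without shControl replicate 3, and the lowest count with adjusted p below 0.05 came without shLmna replicate 3. The fit without shControl replicate 3 kept the pigment-cell transcripts of shLmna replicate 2, and its gained calls included Slc24a5 and Slc30a4. Leaving out shControl replicate 3 and shLmna replicate 2 together, a setting chosen after seeing the data, gave 4 higher, 4 lower and 21. The GC offset with the replicate block left 0 higher, 4 lower and 13. Slc25a24 reversed to -0.049 with the GC offset and to -0.050 with the block added, and Slc9a3r1, which was not called, ranged from -0.340 to 0.060 when 1 library was left out, with a turn of sign without shControl replicate 1 or shLmna replicate 3. The cause was not tested. The replicate block alone gave 3 higher, 4 lower and 18, adding Slc33a1. Deviations of same-numbered libraries had correlations of 0.352, -0.115 and 0.00519 between the groups. Differently numbered libraries were not compared, so these values cannot decide whether the numbers pair the libraries. With DESeq2 there were 3 higher, 3 lower and 16, with RLE factors 2, 4 and 19, with upper-quartile factors 3, 4 and 18, with no filter 3, 4 and 19, and with the GC offset 2, 4 and 19. The median log2 change of the members stayed between -0.10 and 0.01, and Lmna between -1.26 and -1.13.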
